A study of Homo sapiens with 31 samples.

Results

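MYC, its dimerization partner MAX and 8 genes of nucleolar growth and biosynthesis were followed in leukemia cells carrying an shRNA against XIAP. The 10 genes (MYC, MAX, NCL, NPM1, FBL, NOP56, NOP58, ODC1, CAD and NME1) were chosen by symbol, as the rows of the count table whose Ensembl identifier carries that symbol, out of 30667 identifiers. All 10 had a row, all 10 had UMIs in each of the 31 samples, and all 10 passed the filter on low counts in each fit. NALM-6 is an established line of B-cell precursor acute lymphoblastic leukemia. It was transduced with 1 of 4 lentiviral constructs, which pair the EF1a or the SFFV promoter with sh-CTRL or sh-XIAP, and in which the SFFV promoter drives the shRNA more strongly than the EF1a promoter. The 2 sh-XIAP constructs are called moderate KD (EF1a) and strong KD (SFFV) below. The cells were kept in vitro and sampled 4, 10 and 13 days after transduction.

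Each construct was sampled at each day, with 3 samples of EF1a/sh-CTRL at days 4, 10 and 13, 2, 2 and 3 of EF1a/sh-XIAP, 3, 2 and 2 of SFFV/sh-CTRL, and 2, 3 and 3 of SFFV/sh-XIAP. All groups are the same line in culture. The study excluded some samples as outliers, and whether the uneven group sizes come from this is not stated. If so, the spread between samples is that of a trimmed set. The study marked control cells with mTagBFP and XIAP KD cells with eGFP for its competitive assays, and whether the sequenced samples carried these markers is not given in the sources used here. Nothing states that replicates were separate transductions or cultures, so p-values measure the spread between these samples, which may be technical. A sample held 312852 to 1153668 UMIs (median 603822), and the strong KD samples of days 10 and 13 were deeper (median 708866.5) than those of SFFV/sh-CTRL (median 464457). XIAP, the targeted gene, had only 196 UMIs over the 31 samples, 2 to 14 per sample. Its log2 difference at days 10 and 13 was −0.26 (SE 0.395, limma-voom adjusted p = 0.975) with strong KD and −0.17 (SE 0.367, adjusted p = 0.994) with moderate KD. At day 4 it was above 0 with both, 0.21 (SE 0.515, adjusted p = 0.995) and 0.15 (SE 0.427, adjusted p = 0.996). A lower XIAP mRNA level was thus not detectable at this depth on any day, and strong and moderate KD are names of constructs here. The paper reported less XIAP protein by Western blot in NALM-6 cells with both sh-XIAP constructs, and least with the SFFV promoter. Protein was not measured in these data. All 15 B-cell precursor markers had UMIs and summed to 5513 to 6254 CPM per sample (UMI counts scaled to a common library size). Of the markers of other cells, 6 of 11 T and NK cell genes (at most 28.1 CPM in sum, CD3D and CD3E at 0), 9 of 11 myeloid genes (at most 41.6 CPM), 3 of 8 erythroid genes (at most 5.29 CPM) and 3 of 8 stromal genes (at most 11.5 CPM) had any UMI.

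MYC is a transcription factor that binds DNA as a heterodimer with MAX, preferentially at E-box sequences, and drives cell growth, including the making of ribosomes. Ribosomes are assembled in the nucleolus, where nucleolin (NCL) and nucleophosmin (NPM1) act in rRNA synthesis and particle assembly, and fibrillarin (FBL) with NOP56 and NOP58 forms the core of the box C/D snoRNPs that methylate rRNA. ODC1, CAD and NME1 serve biosynthesis: ODC1 makes putrescine, the first polyamine, CAD starts pyrimidine synthesis, and NME1 is a nucleoside diphosphate kinase. These genes are widely used as readouts of MYC activity, and B-cell precursor leukemia cells commonly express MYC.

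The E-box is shown in the member promoters that hold it, since it is the sequence MYC and MAX recognise. RefSeq promoter windows of GRCh38.p14, from 250 bases before to 50 bases after the start of transcription, were at hand for 8 of the 10 genes (not for MYC and NOP58). CACGTG, which reads the same on both strands, was found in 2 of these 8 windows, at chr19:39846356-39846385 (minus strand) for FBL and chr17:51153581-51153608 (plus strand) for NME1, printed here with the motif in capitals.
FBL: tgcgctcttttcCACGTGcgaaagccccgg
NME1: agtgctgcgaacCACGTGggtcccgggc
The same 6 letters were in 7.43% of all 27305 RefSeq windows and in 10.4% of the 9686 windows of genes tested at days 10 and 13. Both matches lie after the start of transcription. Sequence outside the windows was not searched, so a gene without a match here may hold the motif elsewhere. A match is a description of the letters and was not tested as a binding site. Of the 2 genes with a match, NME1 was among those that passed the test in the comparisons below and FBL was not.

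MYC itself stayed within a narrow range. Over the 31 samples its level ran from 345 to 435 CPM (mean 394.9 ± 26.3, SD, n = 31), a 1.26-fold span, and each sample gave 106 to 445 MYC UMIs. Its coefficient of variation was 6.67%, close to the 6.63% that counting that many UMIs gives by itself. In strong KD the 3 samples of day 10 had 372, 345 and 388 CPM and those of day 13 had 391, 435 and 418 CPM. In SFFV/sh-CTRL the 2 samples of day 10 had 410.3 and 431 CPM and those of day 13 had 393 and 422 CPM. The 2 constructs overlapped at day 13 and with the days pooled, with the highest MYC value of days 10 and 13 in a strong KD sample of day 13. At day 10 alone they did not overlap, and the 3 strong KD samples were below both SFFV/sh-CTRL samples. The log2 difference was −0.12 (SE 0.0635, 95% interval −0.25 to 0.01), which did not pass (limma-voom adjusted p = 0.902). With moderate KD it was −0.10 (SE 0.0605, adjusted p = 0.992), from 386 ± 27.4 CPM (n = 5) against 406 ± 26.8 CPM (n = 6). At day 4, MYC stood at 375 and 347 CPM in the 2 strong KD samples and at 389, 389 and 422 CPM in the 3 SFFV/sh-CTRL samples, a log2 difference of −0.18 (SE 0.0858, adjusted p = 0.978 by limma-voom). These day 4 samples did not overlap, but the difference did not pass once adjusted over 18336 genes. Only 2 genes in all passed in that comparison (0.0109%). How many of all genes separate as MYC did at days 4 and 10 was not counted, so these gaps describe the samples only.

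MAX, the obligate partner of MYC, and CAD were the sparsest members, with 17 to 86 and 11 to 87 UMIs per sample. MAX lay between 39.1 and 83.3 CPM and CAD between 35.8 and 89.6 CPM. Their coefficients of variation (17.0% and 17.4%) were again close to those of counting alone (17.3% and 16.9%). The 95% interval of the strong KD effect at days 10 and 13 was −0.26 to 0.41 on the log2 scale for MAX and −0.39 to 0.30 for CAD. MAX at day 4 was 59.4 and 74.4 CPM with strong KD against 55.3, 39.1 and 46.4 CPM with SFFV/sh-CTRL, a log2 difference of 0.45 (SE 0.217, limma-voom adjusted p = 0.978) that did not pass.

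**Figure D1:**
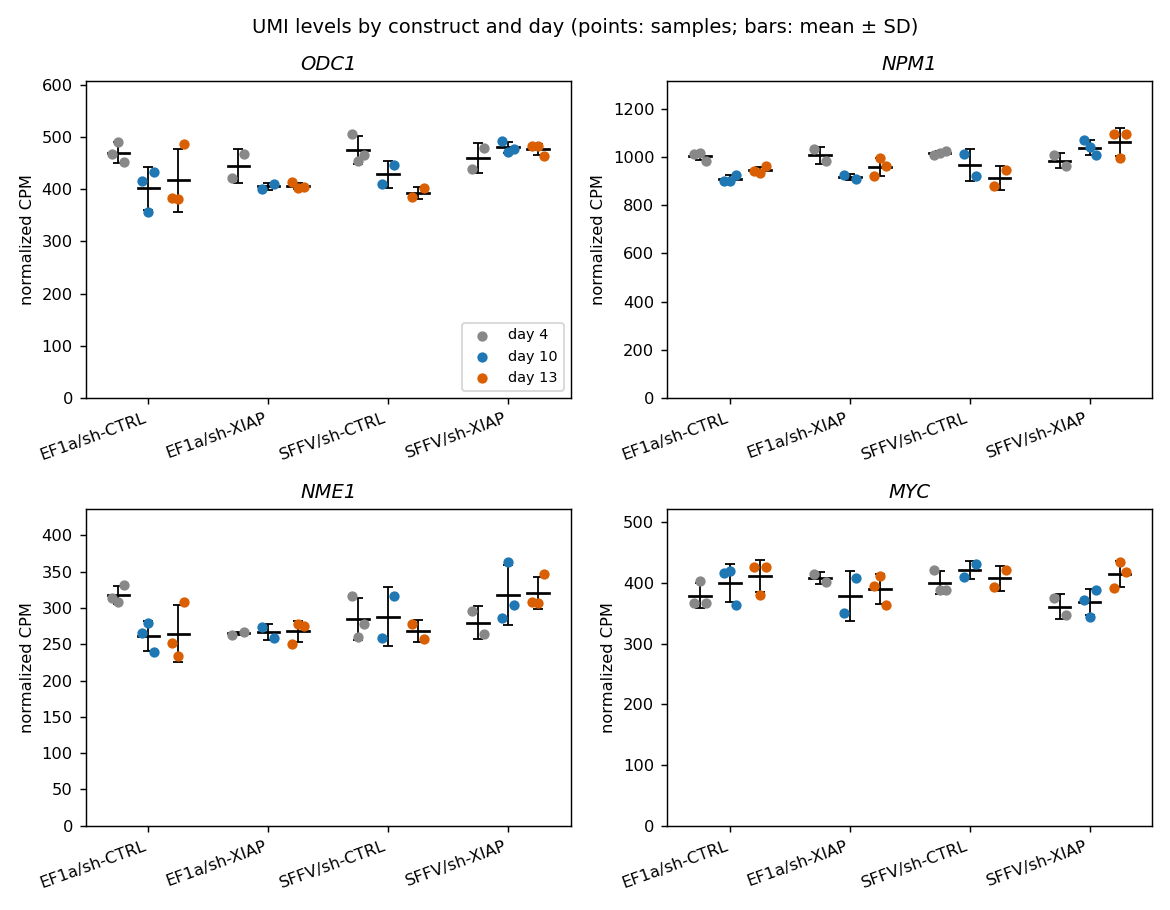
Normalized CPM (vertical axis, from 0) of ODC1, NPM1, NME1 and MYC in each sample, by construct (horizontal axis) and day (colour), with black bars for the mean ± SD of each group. The 6 SFFV/sh-XIAP samples of days 10 and 13 sit at 464 to 492 CPM for ODC1. With the days pooled, the MYC samples of all constructs overlap. Within a day some do not, and SFFV/sh-XIAP lies below SFFV/sh-CTRL at days 4 and 10.

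Which of the 10 genes set the strong KD cells apart at days 10 and 13 was asked by comparing SFFV/sh-XIAP with the mean of the other 3 constructs. ODC1, NPM1 and NME1 were higher with strong KD, by 1.15, 1.09 and 1.14-fold, and the other 7 genes, MYC among them, did not pass. These 3 of 10 members stand beside 0.843% of 17683 genes called in either direction and 0.486% called higher (86 genes). The members were chosen with earlier results known, so that share is a description. ODC1 and NPM1 missed the threshold when day 10 was fitted alone (adjusted p = 0.386 and 0.397), and no member passed there.

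ODC1, the rate-limiting enzyme of polyamine synthesis, showed the widest gap. The strong KD samples held 492, 471 and 477 CPM at day 10 and 482, 484 and 464 CPM at day 13. The 4 SFFV/sh-CTRL samples held 410.3, 446, 385 and 401 CPM. Every strong KD sample was above every SFFV/sh-CTRL sample, and how many of all genes separate in this way was not counted. The 5 EF1a/sh-XIAP samples held 400.2, 411, 414, 403 and 404 CPM. The 6 EF1a/sh-CTRL samples ran from 356 to 486 CPM with a median of 399. Of the 15 samples of the other constructs, 14 were below the lowest strong KD sample, and the exception was 1 EF1a/sh-CTRL sample of day 13 at 486 CPM. The group means were 478 ± 9.67 CPM (n = 6) with strong KD and 408 ± 30.6 CPM (n = 15) with the others, a log2 difference of 0.20 (SE 0.0438, limma-voom adjusted p = 0.0192).

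NPM1, the nucleolar histone chaperone that is among the most abundant nucleolar proteins, moved less but with little spread. Strong KD samples had 1069, 1040.0 and 1007 CPM at day 10 and 1095, 995 and 1093 CPM at day 13. SFFV/sh-CTRL samples had 1011, 919, 878 and 947 CPM. EF1a/sh-XIAP samples had 926, 907, 919, 995 and 962 CPM, and EF1a/sh-CTRL samples ran from 900.3 to 961 CPM. The groups touched: 13 of the 15 other samples were below the lowest strong KD sample and 4 of the 6 strong KD samples were above every other. The means were 1050 ± 42.9 CPM (n = 6) and 935 ± 36.0 CPM (n = 15), a log2 difference of 0.13 (SE 0.0280, limma-voom adjusted p = 0.0198). NPM1 shares its sequence with many processed pseudogenes, and 41 of them in the table took 47.0% of the family's UMIs, so the split between the gene and its copies is uncertain. When the pseudogene UMIs were added to their parent genes, the log2 difference of NPM1 was 0.16 (limma-voom adjusted p = 1.72e-05). That was the smallest adjusted p of NPM1 over all settings. Without that addition, the adjusted p was 0.197 by edgeR's quasi-likelihood test and 0.134 by DESeq2.

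NME1 passed least firmly. Strong KD samples had 286, 364 and 304 CPM at day 10 and 309, 307 and 347 CPM at day 13. SFFV/sh-CTRL samples had 259, 317, 278 and 257 CPM, overlapping with them, EF1a/sh-XIAP samples 251 to 278 CPM and EF1a/sh-CTRL samples 233 to 308 CPM. The means were 319 ± 29.5 CPM (n = 6) and 268 ± 22.7 CPM (n = 15), a log2 difference of 0.18 (SE 0.0557, limma-voom adjusted p = 0.232). That call was lost with DESeq2's size factors (adjusted p = 0.336), with log2 total UMIs as a covariate (0.303), with day 13 alone (0.328), and when any of 6 single samples was left out. NME1 lies beside the near-identical NME2, which had 66 UMIs in the whole table, while the processed pseudogene NME2P1 had 1444, so the reads of this pair may be split among rows.

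**Figure D2:**
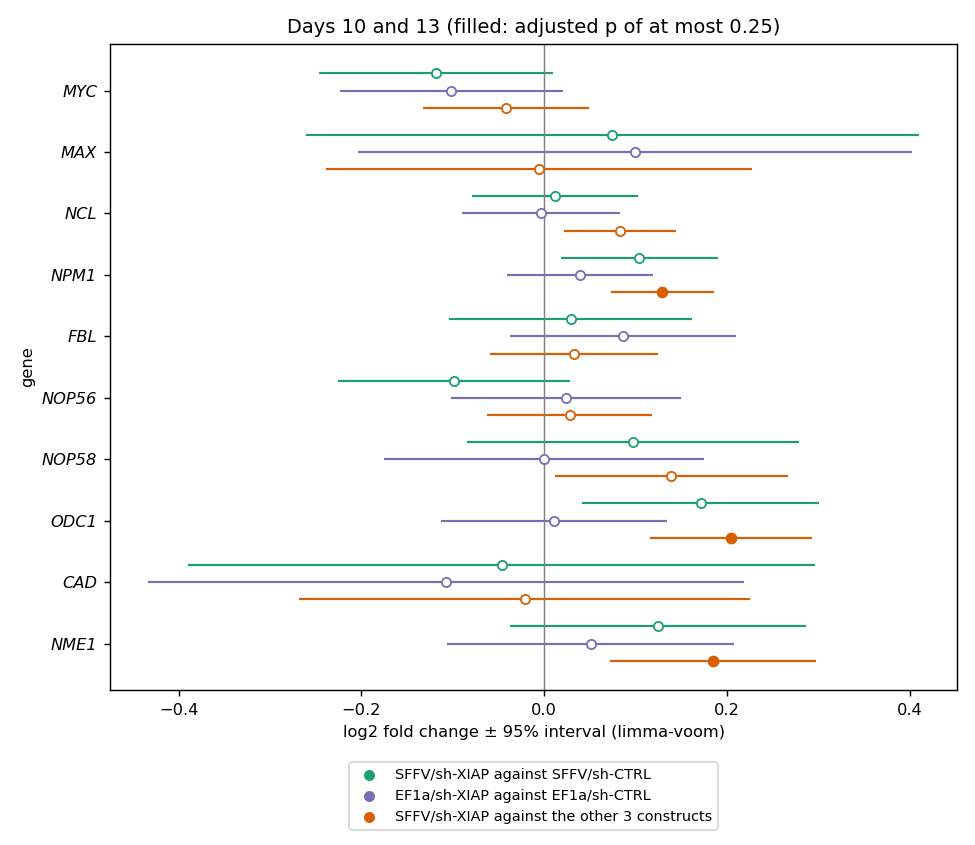
Log2 fold change (horizontal axis) of each of the 10 genes (vertical axis) at days 10 and 13, with 95% intervals from limma-voom, for strong KD, moderate KD and strong KD against the other 3 constructs. Filled points passed an adjusted p of 0.25: ODC1 (0.20), NPM1 (0.13) and NME1 (0.18), all for strong KD against the other constructs.

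The other nucleolar genes did not pass. NCL was at 946 CPM on average with strong KD and at 899 CPM with the others (log2 difference 0.08, SE 0.0306, limma-voom adjusted p = 0.485). It passed when any of 4 single samples was left out, 1 SFFV/sh-CTRL, 1 SFFV/sh-XIAP and 2 EF1a/sh-XIAP (adjusted p from 0.124 to 0.235), and without the filter on low counts (0.0127). NOP58 was at 273 and 247 CPM (log2 difference 0.14, SE 0.0633, adjusted p = 0.706). Its snoRNP partners NOP56 and FBL, which sit on the same particle, had log2 differences of 0.03 each (adjusted p = 0.964 and 0.954). NOP56 also has 3 pseudogenes in the table that took 8.56% of the family's UMIs. The log2 differences of MYC, MAX and CAD were −0.04, −0.0056 and −0.02, with 95% intervals of −0.13 to 0.05, −0.24 to 0.23 and −0.27 to 0.23.

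The composition of the libraries differed in its medians, with overlapping ranges. At days 10 and 13 pseudogenes took a median of 17.8% of UMIs with strong KD, against 18.9% with SFFV/sh-CTRL, 18.8% with EF1a/sh-XIAP and 18.5% with EF1a/sh-CTRL, and ribosomal protein genes took 12.2% against 12.9%, 12.9% and 12.6%. The range of the pseudogene share with strong KD, 17.1% to 20.2%, took in those of the other 3 constructs. The 10 members together took 0.449% with strong KD and 0.431%, 0.412% and 0.409% with the others. Log2 total UMIs as a covariate accounts for depth and not for composition. With it, ODC1 and NPM1 stayed past the threshold (limma-voom adjusted p = 0.0811 and 0.0578) and NME1 did not (0.303). The part of the library composition in these differences was not tested. In bulk samples, a change in every cell and a change in a share of the cells cannot be told apart.

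**Figure D3:**
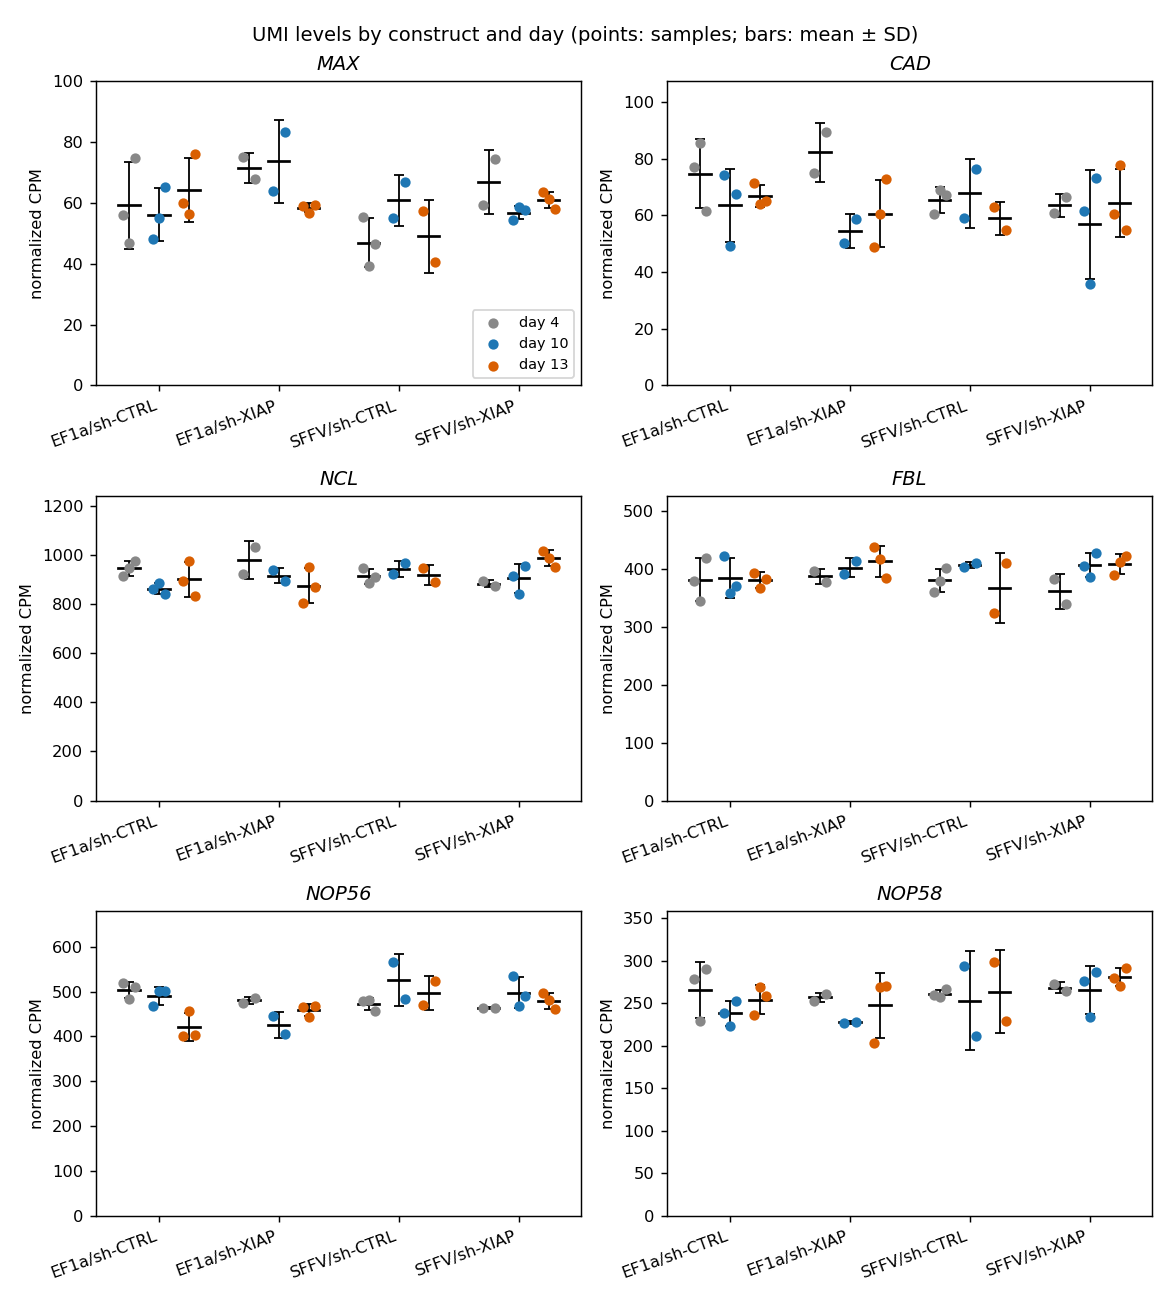
Normalized CPM (vertical axis, from 0) of MAX, CAD, NCL, FBL, NOP56 and NOP58 in each sample, by construct (horizontal axis) and day (colour), with black bars for the mean ± SD of each group. At days 10 and 13 the constructs overlap in each gene, except NOP56 between EF1a/sh-XIAP (at most 467 CPM) and SFFV/sh-CTRL (at least 471 CPM).

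Whether the XIAP shRNA itself went with these levels was asked against the control shRNA under the same promoter. With strong KD against SFFV/sh-CTRL at days 10 and 13, 0 of the 10 members passed by limma-voom, beside 14 of 17683 genes (0.0792%). An unadjusted p under 0.05 was found for 2 members, both higher, beside 986 of the 17683 genes in either direction. edgeR's quasi-likelihood test and DESeq2 also called 0. ODC1 was 1.13-fold higher (log2 0.17, SE 0.0644, 95% interval 0.04 to 0.30, limma-voom adjusted p = 0.719) and NPM1 1.07-fold higher (log2 0.10, SE 0.0425, adjusted p = 0.784). The exact permutation test of single means gave p = 0.00476 for ODC1, the smallest that 6 against 4 samples can give, and 0.0190 for NPM1, which were 0.0952 and 0.190 after adjustment over 20 tests. For NME1, the third gene above, the log2 difference was 0.12 (SE 0.0803, adjusted p = 0.929).

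With moderate KD, 0 of 10 members passed, by limma-voom, edgeR or DESeq2, beside 3 genes in all (0.017%). By limma-voom, 0 members had an unadjusted p under 0.05, beside 817 of all 17683 genes. ODC1 was 406 ± 5.67 CPM (n = 5) with EF1a/sh-XIAP and 409 ± 46.7 CPM (n = 6) with EF1a/sh-CTRL, and the fitted log2 difference, which weights samples and adjusts for day, was 0.01 (95% interval −0.11 to 0.13), so the sign of this difference is not settled. NPM1 was 942 ± 36.2 and 927 ± 23.7 CPM (log2 0.04, SE 0.0397). The difference between the strong and the moderate KD effect was tested by itself, and 0 of 10 members passed, beside 1 gene in all (0.00566%). For ODC1 it was 0.16 on the log2 scale (SE 0.0894, 95% interval −0.02 to 0.34, limma-voom adjusted p = 0.964), so the 2 knockdowns were not shown to differ in ODC1. The 2 estimates for MYC lay close (difference −0.02, SE 0.0880), but the 95% interval, −0.19 to 0.16, is too wide to call the effects equal.

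The promoter by itself was compared in the control cells, SFFV/sh-CTRL against EF1a/sh-CTRL. None of the 10 members passed by limma-voom, edgeR or DESeq2 at days 10 and 13, beside 1 gene in all (0.00566%). By limma-voom, 2 members had an unadjusted p under 0.05, NOP56 and NCL, beside 913 of all 17683 genes. NOP56 was 566, 484, 471 and 523 CPM with SFFV/sh-CTRL and 402 to 501 CPM with EF1a/sh-CTRL, a log2 difference of 0.20 (SE 0.0657, limma-voom adjusted p = 0.922). The groups overlapped. NCL differed by 0.11 (SE 0.0473, adjusted p = 0.922). For ODC1, NPM1 and NME1, the promoter differences were 0.05, 0.06 and 0.12, with adjusted p of at least 0.948.

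At day 4, ODC1, NPM1 and NME1 did not stand higher with strong KD. ODC1 was 439 and 479 CPM with strong KD, 506, 454 and 465 CPM with SFFV/sh-CTRL, 421 and 467 CPM with EF1a/sh-XIAP and 467, 491 and 452 CPM with EF1a/sh-CTRL, all overlapping. NPM1 lay between 962 and 1031 CPM in all 10 samples of that day. The strong KD differences of ODC1, NPM1 and NME1 at day 4 were −0.08, −0.06 and −0.07 on the log2 scale, each below 0 (limma-voom adjusted p of at least 0.981). With moderate KD at day 4, 9 genes passed in all (0.0491%) and 0 members did. NME1 was 263 and 267 CPM with EF1a/sh-XIAP against 314, 309 and 331 CPM with EF1a/sh-CTRL, a log2 difference of −0.26 (SE 0.0942, limma-voom adjusted p = 0.976). Between the 2 control constructs at day 4, 0 members and 3 genes passed (0.0164%).

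Set against day 4, ODC1 and NPM1 were lower at days 10 and 13 in the other 3 constructs, while no member passed in strong KD cells. This comparison of days 10 and 13 with day 4 was added after the values were seen, and it shares its late samples with the comparison of strong KD with the other constructs, so it is no independent support for it. In the 3 other constructs, ODC1 fell by 0.18 on the log2 scale (SE 0.0405, limma-voom adjusted p = 0.0251) and NPM1 fell by 0.10 (SE 0.0261, adjusted p = 0.110). These 2 of 10 members stand beside 0.741% of 17676 genes called in either direction and 0.402% called lower. In strong KD cells, 0 of 10 members passed (0.181% of genes called): ODC1 differed by 0.06 (SE 0.0665, adjusted p = 0.950) and NPM1 by 0.08 (SE 0.0424, adjusted p = 0.873). Mean ODC1 with SFFV/sh-XIAP was 459 ± 28.7 CPM at day 4 (n = 2), 480.1 ± 10.6 at day 10 (n = 3) and 477 ± 10.6 at day 13 (n = 3). With SFFV/sh-CTRL it was 475 ± 27.3 (n = 3), 428 ± 25.5 (n = 2) and 393 ± 11.8 CPM (n = 2). The fall did not hold under each test: edgeR's quasi-likelihood test called 1 of the 2 genes (ODC1) and DESeq2 called 0 (adjusted p = 0.998 for both). NPM1 also lost its call with DESeq2's size factors (0.502) and when any of 5 single samples was left out, and ODC1 lost it without 1 EF1a/sh-XIAP sample of day 4 (0.315).

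The difference of the 2 time courses was tested too, also added after the values were seen and over the same late samples. In it 0 of 10 members passed, beside 0.119% of genes. The log2 differences were 0.24 for ODC1 (SE 0.0779, limma-voom adjusted p = 0.492), 0.18 for NPM1 (SE 0.0498, adjusted p = 0.338), 0.26 for NME1 (SE 0.102, adjusted p = 0.673), 0.20 for NCL (SE 0.0551, adjusted p = 0.338) and 0.10 for MYC (SE 0.0804, adjusted p = 0.901). Of the 10 genes 9 had a difference above 0, where the median over all 17676 genes was 0.0097. How many of all genes lay above 0 was not counted. An unadjusted p under 0.05 was found for 4 members, beside 1129 of all genes in either direction. None passed after adjustment, so the time courses were not shown to differ for any one of them. Of 41 other settings, most of them with 1 sample left out, NPM1 passed in 13 and NCL in 7. Those of NPM1 included log2 total UMIs as a covariate (0.132) and pseudogene UMIs added to their parents (0.0114). The change of the strong KD effect over SFFV/sh-CTRL alone, from day 4 to days 10 and 13, gave 0 members as well, beside 0.0226% of genes, with 0.26 for ODC1 (SE 0.0999, limma-voom adjusted p = 0.935) and 0.17 for NPM1 (SE 0.0650, adjusted p = 0.935).

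**Figure D4:**
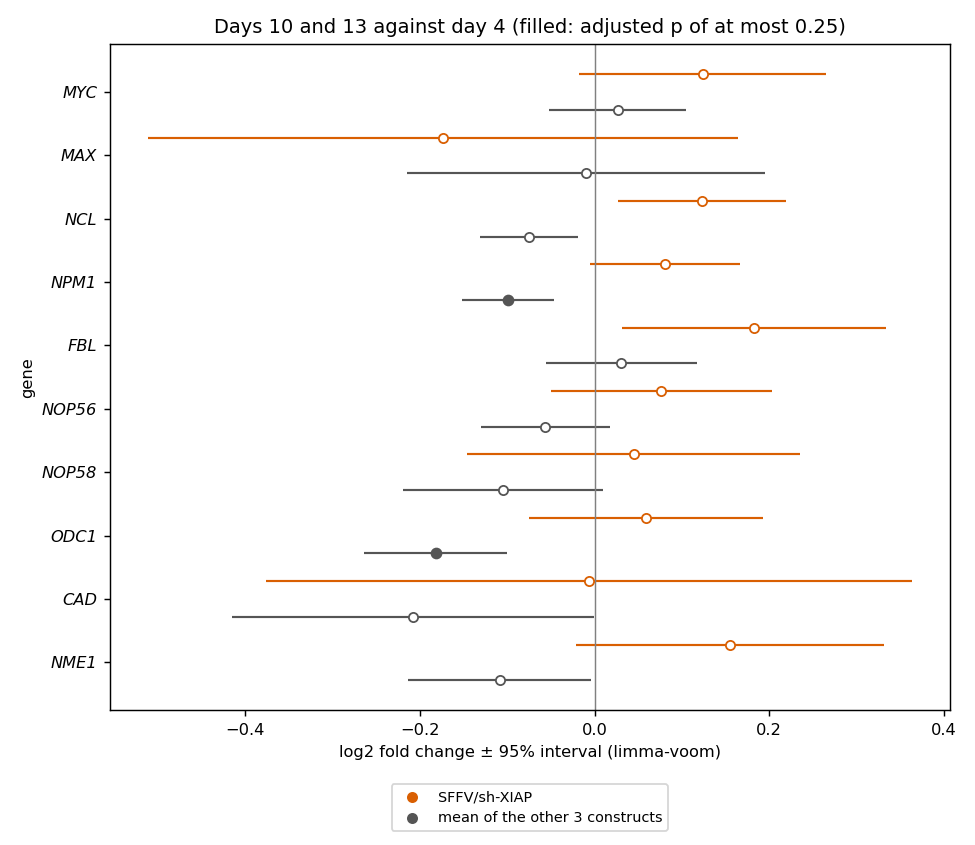
Log2 fold change (horizontal axis) from day 4 to days 10 and 13 of each of the 10 genes (vertical axis) in SFFV/sh-XIAP cells and in the mean of the other 3 constructs, with 95% intervals from limma-voom. Filled points passed an adjusted p of 0.25: ODC1 (−0.18) and NPM1 (−0.10), in the other constructs.

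Averaged over the 4 constructs, no member passed the test for a change with time. Day 10 against day 4 called 0 of 10 members and 0.283% of genes, day 13 against day 4 called 0 of 10 and 0.481%, and day 13 against day 10 called 0 of 10 and 0.0226%. ODC1 stood 0.12 lower at both later days than at day 4, with 95% intervals of −0.21 to −0.03 and −0.20 to −0.03 (limma-voom adjusted p = 0.519 and 0.523). Without the filter on low counts, 8817 genes in all passed at day 10, against 50 with it. NPM1, NOP58 and ODC1, each lower, and FBL, which was higher, were among those 8817. ODC1 also passed at day 13 without 1 SFFV/sh-XIAP sample of day 4. MYC stood 0.08 higher at day 13 than at day 4 (SE 0.0402, 95% interval −0.0016 to 0.16, adjusted p = 0.801).

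The wider pathway around the members was counted from gene lists put together for this comparison. Of 63 measured genes of rRNA synthesis and pre-ribosome assembly, 1 rose with strong KD against the other constructs. It was NPM1, itself a member, beside 0.486% of all genes called higher. The median log2 difference of the 63 genes was 0.08, beside −0.0059 over all 17683 genes, with 48 above 0 and 15 below. Against SFFV/sh-CTRL alone it was 0.055, beside −0.017 over all genes, with 41 above 0 and 22 below. Between the 2 control constructs, without the XIAP shRNA, it was 0.057, beside 0.015, with 38 above 0 and 25 below. In strong KD against the other constructs, promoter and shRNA thus cannot be told apart for this median. With strong KD against the other constructs, 14 of these genes had an unadjusted p under 0.05, each higher, beside 1142 of the 17683 genes in either direction. Of 13 genes of polyamine synthesis and use, 3 passed, beside 0.843% of all genes in either direction. ODC1 and EIF5A (0.15, SE 0.0451, limma-voom adjusted p = 0.221) were higher, and DHPS (−0.63, SE 0.182, adjusted p = 0.203) was lower. EIF5A is the translation factor that carries the polyamine-derived residue hypusine, and DHPS is the enzyme that starts making that residue, so these 2 moved in opposite directions.

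Of 33 further genes widely used as MYC targets, 2 rose, beside 0.486% of all genes called higher. They were HSPD1 (0.13, SE 0.0316, limma-voom adjusted p = 0.0529) and HSPE1 (0.26, SE 0.0711, adjusted p = 0.136), which encode HSP60 and HSP10, the mitochondrial chaperonin and its lid. In the other 3 constructs both fell between day 4 and the later days (−0.10 and −0.22, adjusted p = 0.163 for both), again over shared samples. NME1, itself a member, was the 1 of 26 nucleotide synthesis genes that passed, beside 0.843% of all genes in either direction. None of 11 measured genes of the MYC and MAX network and none of 13 snoRNP core genes passed by limma-voom. At an unadjusted p under 0.05 were 2 of the network genes, both lower, and 3 of the snoRNP genes, each higher. Over all 17683 genes, 1142 were under 0.05 in either direction. Against SFFV/sh-CTRL alone and with moderate KD, 0 genes of any of these 6 lists passed. LDHA, the lactate dehydrogenase subunit, was the single listed gene that rose from day 4 to day 13 over all constructs (0.08, SE 0.0208, limma-voom adjusted p = 0.0887). Of all genes, 0.481% were called there in either direction.

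Across the members, the spread beyond counting differed. Over the 31 samples, the coefficient of variation exceeded that of counting most in ODC1 (9.15% against 6.32%) and NME1 (11.0% against 7.84%). It was 5.80% against 4.22% in NPM1, 5.90% against 4.36% in NCL, 7.53% against 6.06% in NOP56, 9.90% against 8.30% in NOP58 and 6.96% against 6.69% in FBL. Within groups of the same construct and day, the value was 3.47% for NPM1 and 6.61% for ODC1, close to or under that of counting, so most of their excess lay between groups.

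The pattern of MYC over the 12 groups of construct and day was most like that of TRIM33 (Pearson r = 0.86), UBE2K (0.82), ARPC3 (0.82), the pseudogene RPL26P27 (0.82) and BRAT1 (0.80) among 4111 genes with at least 50 CPM. Each point is a mean over 2 or 3 samples, the points share their constructs and days, and the genes were picked as the highest of many. The other members were less like MYC, from NCL (r = 0.43) and CAD (0.37) down to NME1 (−0.22) and ODC1 (−0.28). These values describe 12 groups in which MYC hardly varied beyond counting.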

How the data were processed

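RNA of 31 NALM-6 samples was sequenced by prime-seq, a bulk-adjusted SCRB-seq that counts 3′ ends by unique molecular identifiers (UMIs). The authors deposited 1 table of raw UMI counts, whole numbers per gene and sample, without normalization. The submitters' processing notes name STAR 2.6.0a and the builds hg38, GRCh38, mm10 and GRCm38, and the sources used here do not give the counting tool or annotation. Names and coordinates came from GENCODE 29 (GRCh38), which held 29928 of the 30667 identifiers and may not be the annotation used. The sample labels give culture in vitro, which was followed, although the series text speaks of murine bone marrow. The study's methods describe sorting of marked cells at days 10 and 13 and do not mention day 4.

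Genes above 1 CPM in 1/3 or more of the fitted samples were normalized by TMM (edgeR 4.0.16) and tested with limma-voom (limma 3.58.1, R 4.3.3), adjusted by Benjamini-Hochberg over all genes tested, at the study's adjusted p of at most 0.25. Days 10 and 13 were fitted with construct and day as terms (21 samples), day 4 alone (10 samples), and time over all 31 samples. Intervals are 95% intervals of the moderated statistic. Printed CPM are TMM-scaled, with mean ± SD. edgeR's quasi-likelihood test and DESeq2 1.42.0 were alternatives. UMI totals of 312852 to 1153668 set the precision, and counting error is given beside the spread. The test was checked on simulated counts and gave the right signs and sizes. It called fewer of the known changes at day 4 and in the difference of time courses, where a first criterion on the share recovered was not met and was replaced by criteria on sign, size and p-values of unchanged genes. It called few small changes in any comparison, so a member that did not pass may still differ. Unchanged genes passed slightly too often at an unadjusted p in the comparisons of day 10 with day 4 and of late days with day 4 in the other constructs. Replicates of a group were no duplicates of each other: chi-square per gene was 1.08 to 2.74 over 26 pairs.

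The members and the lists were chosen with earlier results of these data known. So were the comparison of late days with day 4 and the difference of the time courses. Genes named beside the 10 members are those of each list that passed (at most 4), copies that share reads with a member, XIAP, and the 5 genes most like MYC. Alternatives were other tools and scalings, no filter, a stricter threshold, a replicate block, the UMIs of 3726 pseudogenes added to their parent genes, depth as a covariate, each day alone and each sample left out. Nothing was left out of the table here. The study's methods state that 5 samples were excluded as outliers by principal component analysis. Some groups lack a replicate number, and whether these are the excluded samples is not stated.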

Additional observations from a re-analysis of the deposited data

Results flagged for a closer look

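In 40 groups of 4 to 6 samples (each member in each construct at days 10 and 13), 3 samples stood far from the rest of their group by Dixon's criterion, and chance alone flags about 1 in 20 groups. MAX in EF1a/sh-XIAP had 83.3 CPM in replicate 2 of day 10, from 27 UMIs, with the next sample at 64.0 CPM. FBL in SFFV/sh-CTRL had 324 CPM in replicate 1 of day 13, from 113 UMIs, with the next sample at 404 CPM. NOP58 in SFFV/sh-XIAP had 234 CPM in replicate 2 of day 10, from 72 UMIs, with the next sample at 270.5 CPM. None of these 3 genes passed in any comparison at the settings used for the main results. Without the filter on low counts, FBL and NOP58 passed at day 10 against day 4. NOP58 also passed there in the later fall of the other constructs.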

How the results depend on the processing

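No member changed direction in a comparison where it was called. Strong KD against the other constructs called 3 members, 0 with day 10 alone, 4 without a filter (NCL added) and 2 to 4 when 1 sample was left out. ODC1 and NPM1 passed in each setting but that one, and NME1 missed with DESeq2's size factors, the replicate block (0.349), pseudogene UMIs added, depth as a covariate, day 13 alone and at an adjusted p of 0.05. Its NME1 call also went without any 1 of 6 samples, SFFV/sh-CTRL day 10 replicate 1 and day 13 replicate 2, SFFV/sh-XIAP day 10 replicate 3 and day 13 replicate 3, and EF1a/sh-CTRL day 13 replicates 1 and 2 (adjusted p of up to 0.453). Without the 2 shallowest libraries, chosen after the data were seen, NME1 missed (0.296). The later fall in the other 3 constructs called 2 members. It called 1 with edgeR, DESeq2's size factors, an adjusted p of 0.05 or without the 2 shallowest libraries, and 0 with DESeq2. Without a filter it called 7, where 6943 genes passed, and with 1 sample left out 1 to 2. NPM1 was lost there without EF1a/sh-CTRL day 4 or day 10 replicate 1, EF1a/sh-XIAP day 4 replicate 1 or day 10 replicate 2, or SFFV/sh-CTRL day 10 replicate 2, and ODC1 without EF1a/sh-XIAP day 4 replicate 2. The difference of the time courses called 0, 1 with the replicate block, pseudogene UMIs added or depth as a covariate, 2 without a filter and 0 to 2 with 1 sample left out. Day 10 against day 4 called 4 without a filter, where 8817 genes passed, and day 13 against day 4 called 0 to 1 (ODC1, without SFFV/sh-XIAP day 4 replicate 1). The causes were not tested. Over the settings other than leaving out 1 sample, the count of all genes called ran from 41 to 204 for strong KD against the other constructs (149), 0 to 48 for strong KD (14), 0 to 24 for moderate KD (3), 0 to 37 for their difference (1), 0 to 5 for the promoters (1), 18 to 8817 and 36 to 115 for days 10 and 13 against day 4, 32 to 6943 for the other 3 constructs over time (131), 1 to 63 for strong KD over time (32), 0 to 55 for the difference of these (21), 0 to 6 for that against SFFV/sh-CTRL alone (4), 1 to 27 for day 13 against day 10 (4), and at day 4 0 to 25 for strong KD (2), 0 to 29 for moderate KD (9) and 0 to 18 for the promoters (3). Leaving out 1 sample gave, in the same order, 55 (without SFFV/sh-XIAP day 10 replicate 3) to 220, 2 to 45, 0 to 7, 0 to 27, 0 to 1, 30 to 67, 51 to 109, 82 to 187, 10 to 51, 6 to 48, 0 to 11, 1 to 8, 0 to 12, 3 to 15 and 0 to 9. The replicate block changed no other call of a member, and samples share only a number: the mean correlation of their residuals was −0.0041 over 149 pairs of the same number and 0.0023 over 290 others. Depth limits MAX and CAD most.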
